A study of Arabidopsis thaliana with 48 samples.

Results

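In Arabidopsis seedlings given the herbicide chlorsulfuron, 34 genes had little or no rise of total RNA with herbicide over mock treatment in gcn2 mutants and a higher level with herbicide in wild type. They were picked by 3 conditions on group means of log2 values in total RNA. Herbicide minus mock had to be at most 0.2 in gcn2 and at least 0.7 in wild type, and the wild-type herbicide mean had to be at least 6. The genes came from 13513 probe sets that name a single gene, and some families were left out by symbol, such as sugar exporters, cytochrome P450 enzymes and WRKY factors. Of 64 probe sets that met the 3 conditions, 28 had no gene in the annotation used and 2 were left out by symbol, SWEET2 and GRX480. The total RNA values therefore describe the choice and are given without a test. Tests were made on polysome fractions of the same groups, which were hybridised to other arrays.

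The 4 groups were gcn2 with herbicide, gcn2 with mock, wild type with herbicide and wild type with mock, all in the accession Landsberg erecta. Seedlings of 10 days were dipped for 1 min, with 2 h of light behind them, and their aerial parts were taken after another 2 h. The labels name no gcn2 allele. They give a dose of 0.5 mM, whereas the stock they describe (5 mM in 20% acetone, diluted 10000-fold) would give 1000-fold less, and mock was the solvent alone. Each group had 3 replicates, and each replicate had 1 array each of total RNA, non-polysomal RNA, small polysomes and large polysomes, which makes 48 arrays. Nothing in the labels tells whether replicates came from separate cultures, or whether a replicate's total RNA and gradient came from the same plants. P-values therefore measure only the spread between these samples.

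GCN2 is a protein kinase that is switched on by uncharged tRNA and phosphorylates the translation initiation factor eIF2 alpha, which slows the start of translation. Chlorsulfuron blocks acetolactate synthase, an early enzyme in the synthesis of leucine, isoleucine and valine, and activates GCN2 in Arabidopsis. In a sucrose gradient an mRNA sediments further the more ribosomes it carries, so non-polysomal RNA holds messages with few or no ribosomes and large polysomes hold those with many. The mutated gene and the herbicide's main target gene were not analysed here.

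Array medians lay between 6.145 and 6.311 on the log2 scale, apart from 5.668 for replicate 1 of wild-type mock in large polysomes. RCA, the leaf gene for Rubisco activase, averaged between 13.07 and 13.32 in total RNA of the 4 groups. Of 4 root markers, the root hair genes EXPA7 and EXPA18 and the peroxidase AT5G17820 averaged between 2.87 and 3.44, while the lower quartiles of the arrays lay between 3.439 and 3.827. PYK10, a beta-glucosidase abundant in roots and also found in hypocotyls, averaged between 10.46 and 10.71.

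The wild-type gradients of replicate 3 mostly ran opposite to replicates 1 and 2 for genes that rose with herbicide in total RNA. A comparison set of 145 genes was chosen from total RNA by the same wild-type conditions, but with a gcn2 change of at least 0.7 as well. Its median herbicide minus mock difference in wild-type non-polysomal RNA was 1.08, 1.05 and -0.82 in replicates 1, 2 and 3. In small polysomes the wild-type medians were 1.05, 0.95 and -0.94, and in large polysomes 1.36, 0.90 and -0.50. In replicate 3 the gradient labelled herbicide was thus mostly lower for these genes than the gradient labelled mock, although total RNA of replicate 3 had a median of 1.00. In large polysomes of replicate 3, 45 of the 145 genes were above 0, against 44.6% of all probe sets. The cause was not tested. Wild-type herbicide responses and comparisons of the genotypes in the fractions are given with and without replicate 3. Levels of loading are given with all replicates unless stated.

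The 34 genes had varied annotated roles. The regulators among them were MOB1-like, a coactivator of kinases in growth control, TRY (TRIPTYCHON), a small MYB-type repressor that keeps epidermal cells from becoming trichomes, BZIP34, a bZIP transcription factor, and SIZ1, an E3 ligase that attaches SUMO to other proteins. AT5G02420 and AT1G08180 encode small inhibitors of cyclin-dependent kinases of the SIAMESE-related family. Lipid and cell wall enzymes included FATB, the thioesterase that releases saturated fatty acids from acyl carrier protein, and AT2G19880, which makes glucosylceramide. TBL26 belongs to the trichome birefringence-like family, members of which add acetyl groups to cell wall polysaccharides. AT2G27420 encodes a papain-type cysteine protease and AT4G33040 a glutaredoxin. In the plastid genome, petG encodes a subunit of the cytochrome b6f complex and ycf3 a factor for the assembly of photosystem I. The RefSeq annotation of TAIR10.1 lists AT3G47320 as a pseudogene. Plastid genes were 2 of the 34, against 0.51% of all single-gene probe sets with a RefSeq match, and the other genes were spread over chromosomes 1 to 5 with 8, 4, 4, 6 and 10 genes.

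In total RNA the gcn2 change ran from -0.32 to 0.20 on the log2 scale, with a median of 0.02. The wild-type change lay between 0.70 and 1.40 with a median of 0.80, while all 22746 probe sets had medians of -0.06 in gcn2 and -0.02 in wild type. In gcn2 a single gene, AT5G02420, was lower without overlap of herbicide and mock values, and 17% of all probe sets were. In wild type 28 of the 34 genes were higher without overlap, against 10.9% of all probe sets, and these values chose the genes. Since whole aerial parts were used, a change in the RNA per cell and a change in the share of a cell type cannot be told apart in any of these values.

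**Figure D1:**
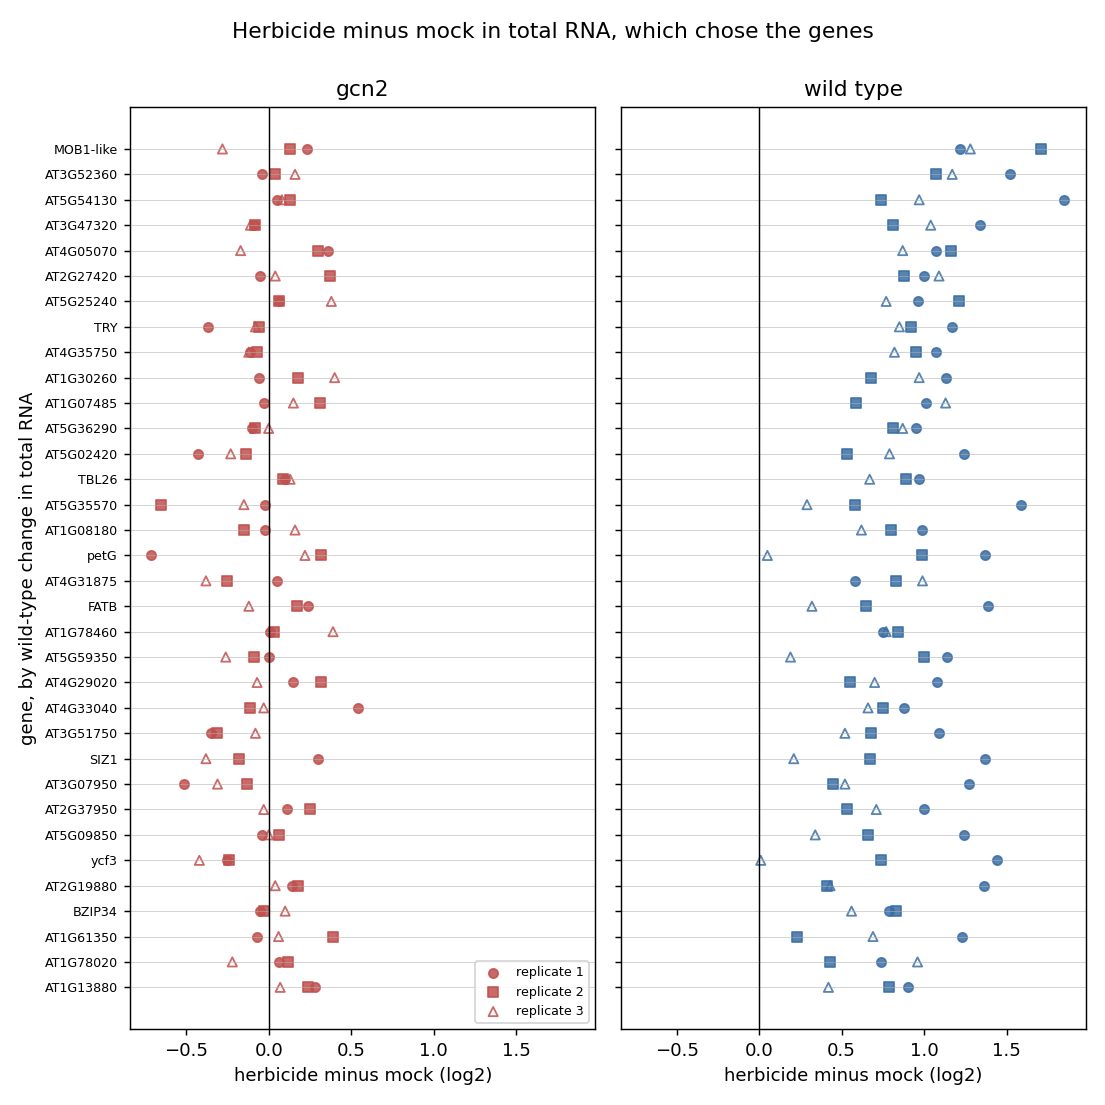
Herbicide minus mock in total RNA (log2, x axis) for each of the 34 genes (y axis, ordered by the wild-type mean), in gcn2 on the left and wild type on the right, with a symbol per replicate. All wild-type points are at or above 0.01, and gcn2 points lie on both sides of 0.

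MOB1-like had the largest wild-type change, 1.40, which is 2.64-fold. Its log2 values in gcn2 were 5.26, 5.71 and 6.36 with herbicide, against 5.04, 5.58 and 6.64 with mock. They were 5.96, 7.50 and 6.84 in wild-type herbicide, against 4.74, 5.79 and 5.56 in wild-type mock. The gcn2 groups overlapped and the wild-type groups just did not. AT3G52360 changed by 1.25 with little scatter, at 9.97, 10.04 and 9.94 in wild-type herbicide against 8.45, 8.97 and 8.77 in wild-type mock. AT5G54130, of a calcium-binding endonuclease/exonuclease/phosphatase family, changed by 1.19, AT3G47320 by 1.06 and AT4G05070, of a wound-responsive family, by 1.03. The next were AT2G27420 with 0.99, AT5G25240 and TRY with 0.98 each, AT4G35750, which has a SEC14-type lipid transfer domain, with 0.95, AT1G30260 with 0.92, AT1G07485 with 0.91 and AT5G36290 with 0.88.

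In gcn2 TRY had 7.94, 7.61 and 8.28 with herbicide, against 8.31, 7.67 and 8.37 with mock. TRY had 9.0, 8.60 and 8.59 in wild-type herbicide, against 7.82, 7.68 and 7.74 in wild-type mock. In gcn2 each herbicide value was below the mock value of its own replicate, and the wild-type groups lay well apart. In gcn2, 15 of the 34 genes had a negative mean change and 9 fell in each of the 3 replicates. By replicate, 15, 19 and 15 of the 34 were above 0, against 43.4%, 40.8% and 43.6% of all probe sets. The gcn2 change was part of the rule, and the share of all probe sets that fell in each replicate was not counted. The most negative mean changes were those of AT3G07950 with -0.32, ycf3 with -0.30, AT5G35570, of an O-fucosyltransferase family, with -0.28, AT5G02420 with -0.27 and AT3G51750 with -0.25. AT4G31875 with -0.19, TRY with -0.17 and AT5G59350 with -0.12 followed.

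The lower bound of 0.7 fell in a continuous range. AT1G13880 with 0.703, AT1G78020 with 0.710 and AT1G61350 with 0.717 lay just inside it, and AT1G22570 with 0.698, AFR with 0.686 and AT2G27580 with 0.680 just outside. At the gcn2 bound of 0.2, AT1G13880 with 0.197, AT1G30260 with 0.172 and AT5G25240 with 0.169 were inside, and AT2G30930 with 0.202, AT1G15250 with 0.207 and AT2G28200 with 0.210 were outside. At the lower bound of 6 on the wild-type herbicide mean, SIZ1 with 6.06, AT3G07950 with 6.08 and AT3G47320 with 6.11 were inside, and AT2G28330 with 5.81, AT1G52540 with 5.76 and AT1G23205 with 5.74 outside.

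The choice leaned on replicate 1. The median wild-type change of the 34 genes in total RNA was 1.11, 0.77 and 0.70 in replicates 1, 2 and 3, and 25 genes had their largest change in replicate 1. For 25 genes, or 73.5%, the lowest wild-type mock value was that of replicate 1, against 34% of all probe sets and 59.3% of the genes that rose in both genotypes. Mean mock values were higher in gcn2 than in wild type for 33 of the 34 genes, by a median of 0.31, and by 0.20 with replicate 1 left out. After herbicide, gcn2 was lower than wild type by a median of -0.51. The rule used these same means and favours genes with low wild-type mock and high gcn2 mock values. The share of all probe sets higher in gcn2 mock was not counted, so no genotype difference in mock can be read from this. With the wild-type mock array of replicate 1 left out, 22 genes met the rule, of which 16 were among the 34. With replicate 1 left out of all groups, 22 genes met it, of which 11 were among the 34.

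A change of at least 0.7 in each wild-type replicate was seen for 11 genes, MOB1-like, AT3G52360, AT5G54130, AT3G47320, AT4G05070, AT2G27420, AT5G25240, TRY, AT4G35750, AT5G36290 and AT1G78460, the last encoding a SOUL-type heme-binding protein. In 8 genes at least 1 replicate was below 0.35. They were petG, ycf3, SIZ1, FATB, AT5G59350, AT5G35570, AT5G09850, which has the N-terminal domain of transcription elongation factor TFIIS, and AT1G61350, an ARM repeat protein. For petG the wild-type herbicide values were 6.89, 7.53 and 6.35, against mock values of 5.52, 6.54 and 6.31, so that replicate 3 held almost no difference. For ycf3 the values were 8.54, 9.32 and 7.93 with herbicide, against 7.10, 8.58 and 7.92 with mock, and the groups overlapped.

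In the fractions, the question is whether the same genes differed with herbicide on arrays that had not chosen them. The gcn2 medians of non-polysomal RNA were -0.17, -0.03 and 0.10 in replicates 1, 2 and 3. Small polysomes gave 0.11, 0.12 and -0.08, and large polysomes 0.24, 0.09 and -0.08. Between 12 and 24 of the 34 genes were above 0 in a gcn2 replicate of a fraction, against 42.3% to 52.2% of all probe sets.

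In wild-type non-polysomal RNA the median change of the 34 genes was 0.94, 0.66 and -0.64 in replicates 1, 2 and 3. There 33, 31 and 2 genes were above 0, against 48.4%, 42.1% and 54.1% of all probe sets. In small polysomes the wild-type medians were 0.69, 0.42 and -0.46, with 33, 29 and 3 genes above 0, against 49.5%, 46.6% and 49.6%. In large polysomes they were 0.91, 0.40 and 0.30, with 32, 32 and 22 genes above 0, against 76.7%, 45.2% and 44.6%. Replicates 1 and 2 thus ran as in total RNA, and replicate 3 ran the other way in non-polysomal RNA and small polysomes, as it did for the comparison set. For all probe sets the wild-type median of replicate 1 in large polysomes was 0.34.

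**Figure D2:**
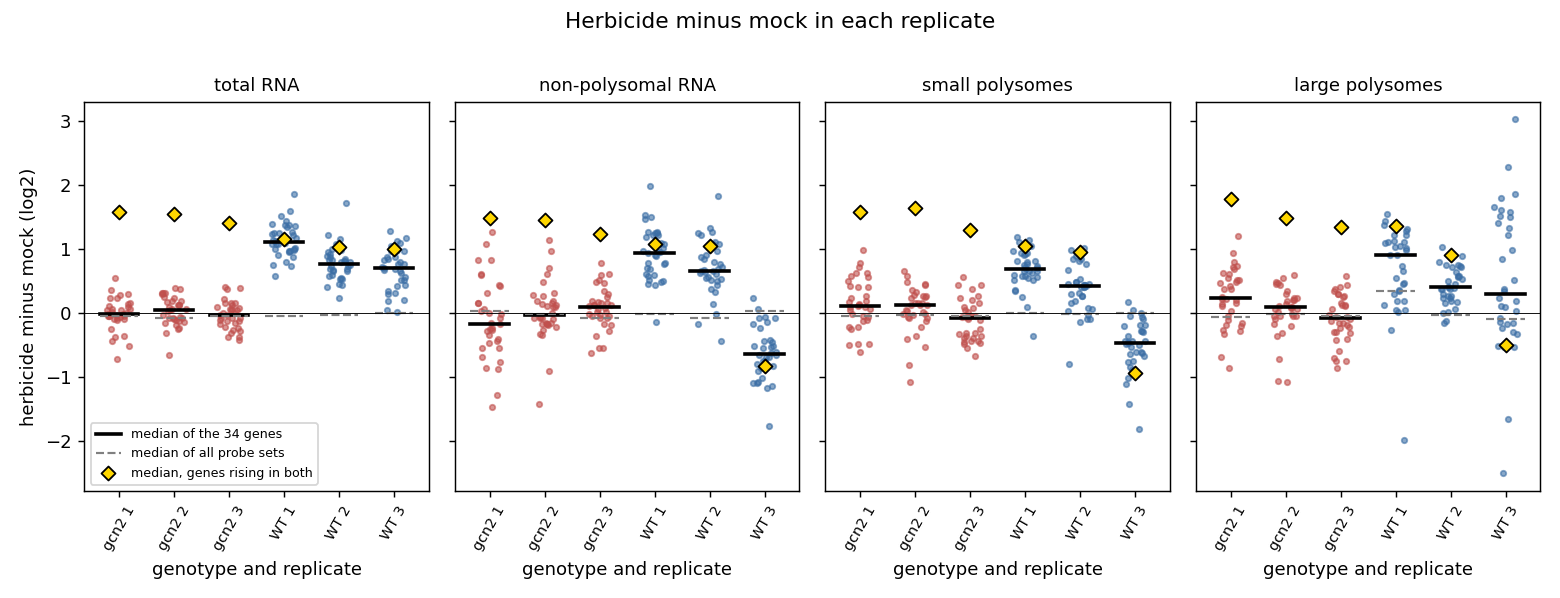
Herbicide minus mock (log2, y axis) in each replicate of gcn2 and wild type (x axis), with a panel per RNA type and a point per gene. Black bars are medians of the 34 genes, dashed bars medians of all 22746 probe sets, and diamonds medians of the 145 genes that rose in both genotypes. The wild-type bars of replicate 3 lie at -0.64 in non-polysomal RNA and -0.46 in small polysomes, against 0.94 and 0.69 in replicate 1.

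With all 3 replicates, limma called none of the 34 genes for the wild-type response in any of the 3 fractions, and 0% of all 22746 probe sets in each. In the order non-polysomal, small, large, 1, 0 and 9 of the 34 genes had an unadjusted p under 0.05, against 1.78%, 0.945% and 6.75% of all probe sets. The median wild-type change of the 34 genes was 0.29, 0.20 and 0.54 in these fractions, against -0.02, -0.01 and 0.08 for all probe sets. In large polysomes 6 genes were higher without overlap, against 5.38% of all probe sets, among them BZIP34 and AT2G37950. AT5G02420 is counted among the 6 although its lowest herbicide value and its highest mock value, 6.02 each, differ only past the second decimal. BZIP34 had 7.67, 7.47 and 7.10 in wild-type herbicide, against 6.30, 6.97 and 6.91 in wild-type mock. In non-polysomal RNA ycf3 alone of the 34 was higher without overlap, at 7.43, 8.22 and 7.10 against 6.34, 6.89 and 6.86, and 2.13% of all probe sets were. In small polysomes none was, against 1.74% of all probe sets.

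With wild-type replicate 3 left out, the median wild-type change was 0.78 for non-polysomal RNA, 0.59 for small and 0.63 for large polysomes. For all probe sets it was -0.05, -0.02 and 0.14, and for the 145 genes that rose in both genotypes 1.03, 1.02 and 1.14. In non-polysomal RNA all 34 genes were then above 0, as were 44.5% of all probe sets, and 27 were higher without overlap, against 22.3%. In small polysomes 33 genes were above 0, against 47.5%, and 17 did not overlap, against 19.7%. In large polysomes 32 were above 0, against 67.4%, and 23 did not overlap, against 26.2%. Without replicate 3, a wild-type group holds 2 arrays, so that values without overlap are common.

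With that replicate left out, 4 of the 34 genes rose in wild-type non-polysomal RNA, against 1.62% of all probe sets and 71 of the 145 genes that rose in both. Replicate 3 was singled out because the comparison set ran the other way in these same fraction arrays. Counts and p-values without it, above and below, therefore depend on that choice and are not independent tests of a rise. The change of TRY was 1.36 ± 0.22 (SE; adjusted p = 0.010), which is 2.57-fold. In gcn2 TRY had 8.83, 8.79 and 9.12 with herbicide, against 8.84, 8.68 and 9.20 with mock. TRY had 10.06, 10.08 and 8.70 in wild-type herbicide, against 8.61, 8.83 and 9.87 in wild-type mock, where the last value of each group is that of replicate 3. The wild-type arrays lay further apart than those of gcn2. The groups overlapped in both genotypes, in wild type through replicate 3.

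AT1G30260 rose by 1.24 ± 0.24 (SE; adjusted p = 0.022) without replicate 3. In gcn2 it had 9.36, 9.29 and 9.44 with herbicide, against 8.76, 8.79 and 8.83 with mock. It had 9.73, 10.30 and 8.95 in wild-type herbicide, against 8.49, 9.06 and 10.04 in wild-type mock. The gcn2 groups did not overlap, and the wild-type groups did through replicate 3. AT3G47320 rose by 1.33 ± 0.29 (SE; adjusted p = 0.033) and AT2G19880 by 1.09 ± 0.26 (SE; adjusted p = 0.047). AT3G47320 had 7.79, 7.11 and 5.78 in wild-type herbicide, against 5.80, 6.44 and 7.54 in wild-type mock. The values of replicate 3 were again in the reverse order.

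MOB1-like had the largest wild-type change in non-polysomal RNA without replicate 3, 1.66 ± 0.45 (SE), but did not pass (adjusted p = 0.067). It had 6.11, 7.47 and 5.10 in wild-type herbicide, against 4.62, 5.64 and 6.20 in wild-type mock. For ycf3 the change was 1.21 ± 1.17 (SE; adjusted p = 0.65). The smallest were SIZ1 with 0.08, AT1G13880, which has an ELM2 domain, with 0.10, and FATB with 0.21. The pair of SIAMESE-related genes did not pass, and AT1G08180 had a change of 1.08 ± 0.29 (SE; adjusted p = 0.062). Genes with at least 0.7 in each replicate of total RNA had a median change of 0.84 in non-polysomal RNA, and those with a replicate below 0.35 had 0.66. The medians were 0.62 and 0.48 in small polysomes and 0.53 and 0.51 in large polysomes, and these differences were not tested.

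**Figure D3:**
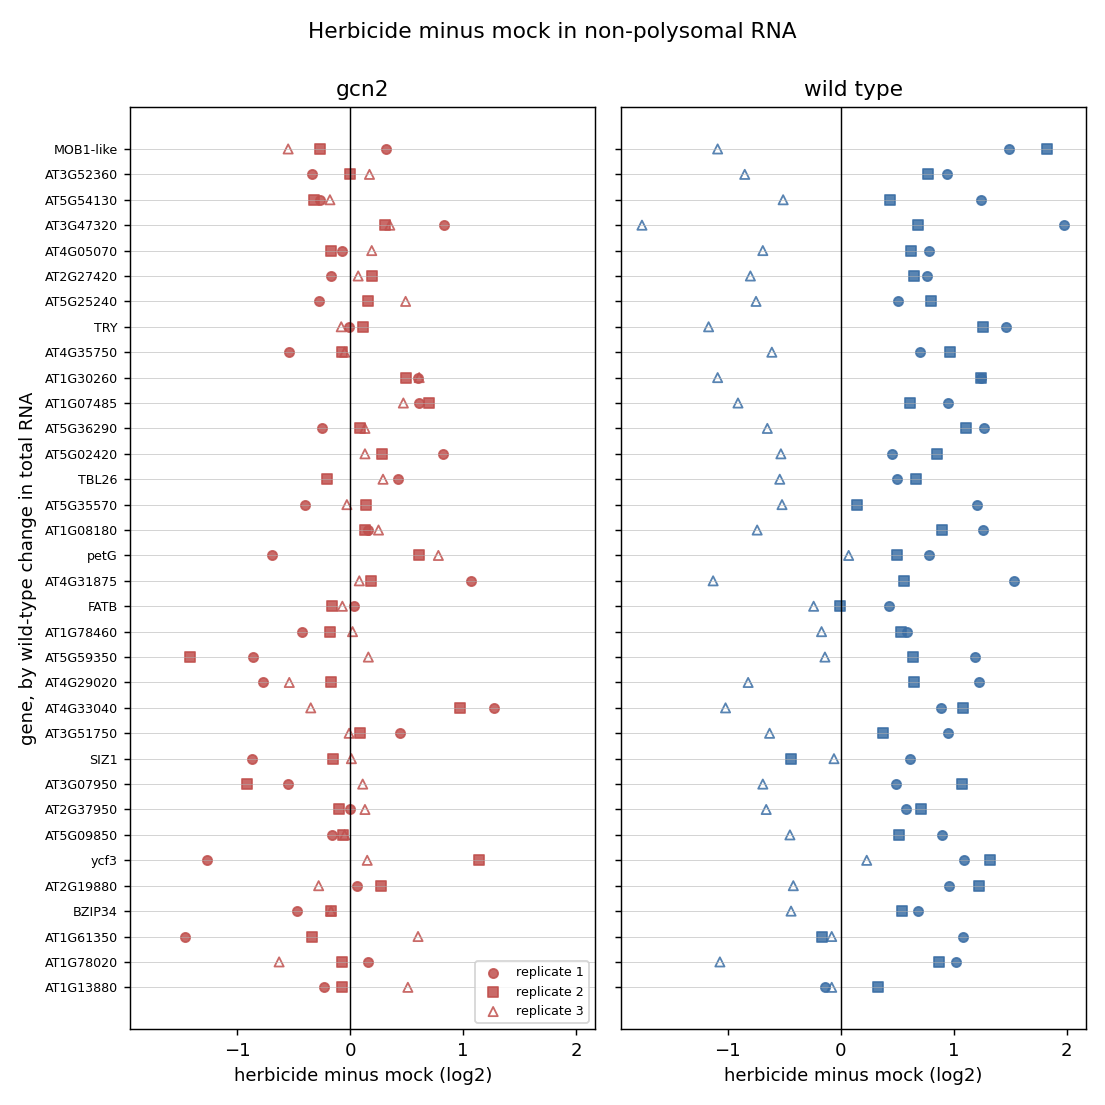
Herbicide minus mock in non-polysomal RNA (log2, x axis) for each of the 34 genes (y axis, ordered as by the wild-type mean in total RNA), in gcn2 on the left and wild type on the right, with a symbol per replicate. In wild type, replicate 3 is below 0 for 32 genes, while replicates 1 and 2 are above 0 for 33 and 31.

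In small polysomes TBL26 alone of the 34 genes rose in wild type without replicate 3, by 0.92 ± 0.18 (SE; adjusted p = 0.044), against 0.576% of all probe sets and 47 of the 145 genes that rose in both. In gcn2 TBL26 had 7.15, 7.06 and 6.98 with herbicide, against 7.12, 7.28 and 7.33 with mock, and the groups overlapped. It had 7.53, 7.73 and 6.68 in wild-type herbicide, against 6.72, 6.71 and 7.29 in wild-type mock. By size, AT3G47320 with 1.00 ± 0.33 (SE; adjusted p = 0.31) and MOB1-like with 0.96 stood before TBL26, and AT4G29020 with 0.81 and AT4G33040 with 0.77 after it, but none of these passed. With the replicate number as a block and without replicate 3, the count in small polysomes was 10 of the 34, against 3.74% of all probe sets. The smallest were petG with -0.22, AT5G35570 with 0.00 and SIZ1 with 0.02.

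In large polysomes none of the 34 genes passed in wild type without replicate 3, against 0.484% of all probe sets, and 15 had an unadjusted p under 0.05, against 10.6%. TBL26 was first with 1.16 ± 0.27 (SE; adjusted p = 0.078), followed by AT2G27420 with 1.14, AT3G47320 with 1.03, AT3G52360 with 0.98 and AT4G31875 with 0.94. TBL26 had 7.58, 7.59 and 6.26 in wild-type herbicide, against 6.15, 6.70 and 6.56 in wild-type mock. The smallest were SIZ1 with -0.91, ycf3 with -0.20 and AT3G07950 with 0.07. For SIZ1 the value rests on replicate 1 of wild-type mock at 6.50, as the other 11 large polysome values lay between 3.95 and 4.67. The wild-type mock array of replicate 3 held values far from its group in both directions, such as 4.35 for FATB, against 6.85 and 7.25 in the other replicates, and 8.10 for AT3G47320, against 5.77 and 5.38.

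**Figure D4:**
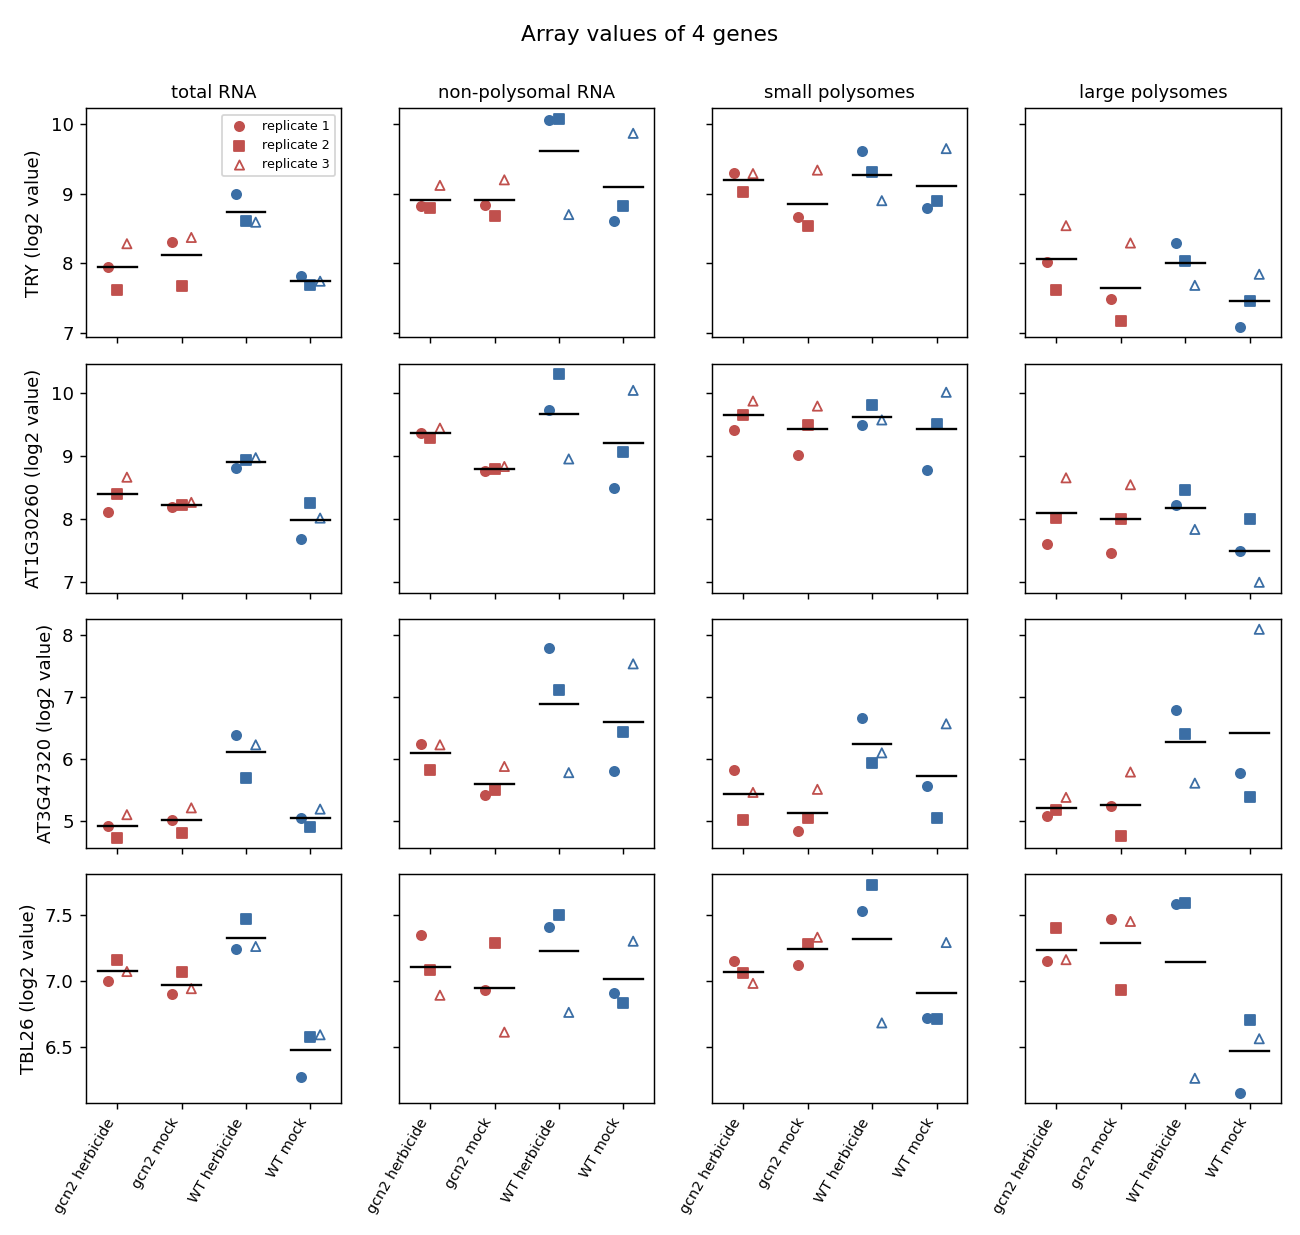
Array values (log2, y axis) of TRY, AT1G30260, AT3G47320 and TBL26 in rows, with a column per RNA type. Groups on the x axis are gcn2 herbicide, gcn2 mock, wild-type (WT) herbicide and WT mock, symbols are replicates and bars are means. In non-polysomal RNA of wild type, open triangles for replicate 3 lie in the reverse order of the other replicates in each of the 4 genes.

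In gcn2 the fractions held no called change in any of the 34 genes by limma. This count of 0 stands against 5.62% of all probe sets called in either direction for non-polysomal RNA, 5.91% for small and 1.77% for large polysomes. At an unadjusted p under 0.05 there were 1, 0 and 0 of the 34 genes, against 18.4%, 19.5% and 8.37% of all probe sets. The median gcn2 change was 0.00, 0.07 and 0.09 for the 34 genes, against 1.32, 1.48 and 1.5 for the 145 genes that rose in both. Of the 145, 90, 101 and 72 rose in gcn2 in the 3 fractions.

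With the replicate number as a block, none of the 34 genes passed in gcn2 either, against 6.46%, 10.1% and 1.76% of all probe sets. Values without overlap in gcn2 were fewer among the 34 genes than among all probe sets. In non-polysomal RNA 2 of the 34, AT1G30260 and AT1G07485, were higher without overlap, against 11.6% of all probe sets, with changes of 0.57 ± 0.34 (SE; adjusted p = 0.41) and 0.59 ± 0.26 (SE; adjusted p = 0.24). AT1G07485 had 7.92, 8.01 and 8.00 in gcn2 herbicide, against 7.31, 7.31 and 7.53 in gcn2 mock. In total RNA the gcn2 changes of these genes had been 0.17 and 0.14. In large polysomes 1 of the 34, AT4G29020, was lower without overlap in gcn2, against 9.38% of all probe sets, at 8.12, 7.75 and 8.76 with herbicide against 8.98, 8.81 and 9.05 with mock.

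The difference of the responses, gcn2 minus wild type, was tested as an interaction in limma. With all replicates none of the 34 genes passed in non-polysomal RNA, small polysomes or large polysomes, against 1.06%, 0.765% and 0.0615% of all probe sets. At an unadjusted p under 0.05 there were 0, 0 and 1 of the 34 genes, against 10.5%, 8.24% and 5.12% of all probe sets. The median difference was -0.36, -0.15 and -0.52, against 0.02, -0.03 and -0.11 for all probe sets. Without wild-type replicate 3 the medians were -0.79, -0.52 and -0.53, against 0.07, -0.01 and -0.18, and 34, 33 and 31 of the 34 genes were below 0, against 44%, 51.7% and 69% of all probe sets. TRY then passed in non-polysomal RNA, where its response was lower in gcn2 than in wild type by -1.35 ± 0.29 (SE; adjusted p = 0.044), while 0.418% of all probe sets were lower. In small and large polysomes none of the 34 passed without replicate 3, against 0.286% and 0.0659% of all probe sets, and 3 and 5 had an unadjusted p under 0.05, against 6.17% and 5.4%. With the replicate number as a block and without replicate 3, 3 of the 34 were lower in small polysomes, against 0.822% of all probe sets.

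After herbicide, gcn2 was compared with wild type directly. With all replicates a single gene of the 34, AT3G07950, was lower in gcn2 non-polysomal RNA, by -1.29 ± 0.36 (SE; adjusted p = 0.039), while 4.2% of all probe sets were lower. It had 3.80, 3.24 and 4.52 in gcn2 herbicide, against 4.74, 5.97 and 4.73 in wild-type herbicide. The gcn2 values 3.80 and 3.24 lie below the lower quartiles of their arrays, 3.814 and 3.661. AT3G07950 no longer passed without gcn2 herbicide replicate 1 (-1.26), without gcn2 herbicide replicate 2 (-0.98) or without wild-type herbicide replicate 2 (-0.88). The count of the 34 genes was 6 without gcn2 herbicide replicate 3, 2 higher and 4 lower in gcn2, against 3.46% and 3.42% of all probe sets. In small and large polysomes none of the 34 passed, against 2.88% and 0.659% of all probe sets, and 5 and 0 had an unadjusted p under 0.05, against 14.6% and 6.13%. With the replicate number as a block, none passed in large polysomes, against 0.492% of all probe sets, and AT5G59350 was lower in gcn2 small polysomes (adjusted p = 0.0045, against 0.30 without the block), while 2.54% of all probe sets were lower. AT5G59350 had 4.11, 5.50 and 5.66 in gcn2 herbicide, against 5.59, 6.80 and 6.15 in wild-type herbicide, a difference of -1.09.

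Without wild-type replicate 3, 9 of the 34 genes were lower in gcn2 than in wild type after herbicide in non-polysomal RNA, against 5.61% of all probe sets. They were TRY with -1.16 ± 0.20 (SE; adjusted p = 0.0039), AT3G47320 with -1.35, AT4G29020 with -1.73, AT1G78020, of the FCS-like zinc finger family, with -1.17, MOB1-like with -1.84, AT5G09850 with -0.89, AT5G36290, of a family of Golgi manganese transporters, with -1.29, AT3G07950 with -1.5 and AT5G25240 with -0.91. In large polysomes AT3G47320 was lower, by -1.39 ± 0.28 (SE; adjusted p = 0.023), against 0.0396% of all probe sets, at 5.08, 5.18 and 5.38 in gcn2 herbicide against 6.80, 6.41 and 5.61 in wild-type herbicide. In small polysomes none passed, against 1.77% of all probe sets, and 8 had an unadjusted p under 0.05, against 12.2%. With the replicate number as a block and without replicate 3, 13 of the 34 were lower in small polysomes, against 4.75% of all probe sets.

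In mock seedlings none of the 34 genes passed between gcn2 and wild type by limma in non-polysomal RNA, small polysomes or large polysomes, against 0.0747%, 0.0747% and 0.0396% of all probe sets. At an unadjusted p under 0.05 there were 3, 0 and 5 of the 34 genes, against 5.2%, 3.61% and 6.82% of all probe sets. With the replicate number as a block none passed in small polysomes, against 0.11% of all probe sets. The median difference was -0.20, -0.16 and 0.38, and without wild-type replicate 3 it was 0.07, 0.05 and 0.33, while all probe sets then had -0.02, 0.00 and 0.18. Without that replicate none of the 34 genes passed either, against 0.0528%, 0.0572% and 0.0484% of all probe sets, and 3, 1 and 4 had an unadjusted p under 0.05, against 5.06%, 2.74% and 11.3%. A single gene was higher in gcn2 non-polysomal RNA without gcn2 mock replicate 3, against 0.0967% of all probe sets.

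Polysome loading was taken per gradient by averaging small and large polysomes and subtracting the non-polysomal value. For the herbicide response of loading, none of the 34 genes passed in gcn2, in wild type or in the difference by limma, against 0.0484%, 0% and 0% of all probe sets, and 0, 1 and 0 had an unadjusted p under 0.05, against 8.06%, 5.22% and 6.24%. The median change of loading was 0.07 in gcn2 and 0.05 in wild type, against -0.02 and 0.06 for all probe sets. Without wild-type replicate 3, the wild-type median was -0.27, with 27 genes below 0, against 38.2% of all probe sets. None of the 34 passed then, against 0.0044% of all probe sets, and 5 had an unadjusted p under 0.05, against 19.8%. The difference of the loading responses then had a median of 0.29 for the 34 genes and -0.15 for all probe sets, with none of the 34 called, against 0.0044%, and 3 with an unadjusted p under 0.05, against 16.1%. MOB1-like had the most negative wild-type change of loading without replicate 3, -1.13 ± 0.26 (SE; adjusted p = 0.071).

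The level of loading, as opposed to its change, was low for many of the 34 genes. Each gradient was centred on its median over all probe sets, and the mean of a group was tested against 0 by limma. Of the 34 genes, 14 lay below the median in gcn2 herbicide, 16 in gcn2 mock, 16 in wild-type herbicide and 17 in wild-type mock, against 12.8%, 14.9%, 14.6% and 16.9% of all probe sets. Of the 145 genes that rose in both, 15, 31, 60 and 67 lay below the median in these groups. In wild type low loading was thus frequent in that set as well. A single gene, AT4G29020, lay above it in gcn2 herbicide and in gcn2 mock, against 13.8% and 14.3%. The median loading of the 34 genes was -0.32, -0.36, -0.64 and -0.60 in these 4 groups, and that of the 145 genes that rose in both was 0.12, -0.12, -0.29 and -0.39. By replicate, the wild-type medians of the 34 genes were -0.77, -0.81 and -0.36 with herbicide, and -0.31, -0.52 and -1.28 with mock. Herbicide was thus below mock in replicates 1 and 2 and above it in replicate 3, which the similar wild-type group values do not show. The median gene length of the 34 genes was 1614.5 bp, against 2117 bp for 13436 single-gene probe sets. Single genes ran from 114 to 6454 bp, and the part of length in the loading was not tested. The 34 genes also had a wild-type herbicide mean of at least 6 in total RNA, which all probe sets did not need. The part of signal level was not tested either. With the gcn2 mock gradient of replicate 1 left out, 8 genes lay below the median in gcn2 mock, against 9.93% of all probe sets. From small polysomes alone, 9 lay below it in gcn2 mock and 8 in wild-type mock, against 16.2% and 14.4% of all probe sets. Without wild-type replicate 3, 15 lay below it in wild-type mock, against 15.9% of all probe sets. The level in wild-type herbicide was not fitted without that replicate.

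The plastid genes had the lowest loading in gcn2. The petG value was -4.14 ± 0.48 (SE; adjusted p = 1.2e-05) in gcn2 herbicide and -3.75 ± 0.48 (SE; adjusted p = 2.1e-05) in gcn2 mock. In wild type it was -2.65 ± 0.48 (SE; adjusted p = 0.00040) with herbicide and -2.09 ± 0.48 (SE; adjusted p = 0.0030) with mock. The gcn2 gradients of petG differed among themselves, with -4.18, -5.40 and -2.84 in herbicide and -5.43, -4.23 and -1.60 in mock. For ycf3 the gcn2 values were -5.02, -5.35 and -1.71 with herbicide and -6.07, -4.00 and -0.90 with mock, so replicate 3 was closest to 0 in each group. The non-polysomal level of ycf3 was 11.81, 9.41 and 7.20 in gcn2 mock, against 6.34, 6.89 and 6.86 in wild-type mock, which is a difference of 2.77 ± 0.90 (SE; adjusted p = 0.77). The groups did not overlap, yet most of the difference came from replicates 1 and 2. Without wild-type replicate 3 the difference was 2.85 ± 1.07 (SE; limma, adjusted p = 0.86).

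Among the nuclear genes, loading was lowest in gcn2 mock for AT1G78460 with -1.48 ± 0.21, AT3G52360 with -1.39 ± 0.15 and AT2G27420 with -1.18 ± 0.14 (SE). AT3G52360 had -1.79, -1.32 and -1.05 in gcn2 mock and -1.53, -1.32 and -1.74 in wild-type mock. The SIAMESE-related genes lay low in all groups, with -1.24, -1.13, -1.29 and -1.13 for AT1G08180 and -1.01, -0.78, -0.90 and -1.12 for AT5G02420 in gcn2 herbicide, gcn2 mock, wild-type herbicide and wild-type mock. TRY had a loading of -0.27 ± 0.18 (SE; adjusted p = 0.32) in gcn2 herbicide and -0.66 ± 0.18 (SE; adjusted p = 0.010) in gcn2 mock. In wild type TRY had -1.0 ± 0.18 (SE; adjusted p = 0.00047) with herbicide and -0.80 ± 0.18 (SE; adjusted p = 0.0030) with mock. By replicate these were -1.13, -1.39 and -0.46 with herbicide and -0.54, -0.59 and -1.26 with mock.

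**Figure D5:**
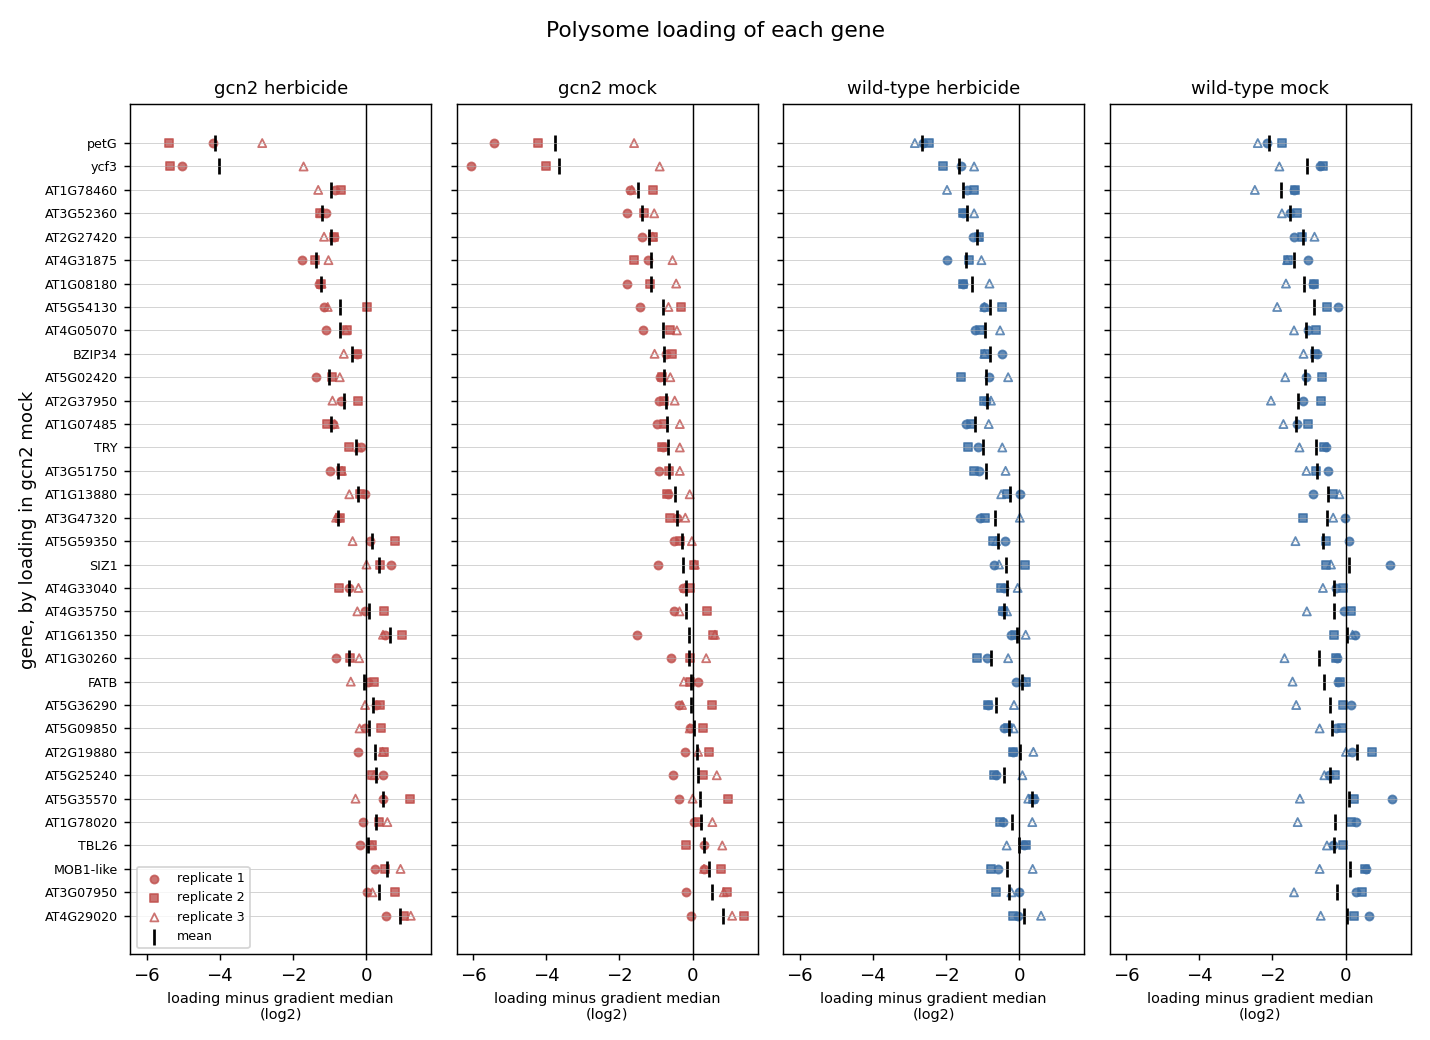
Polysome loading minus the gradient median (log2, x axis) for each of the 34 genes (y axis, ordered by gcn2 mock), with panels for gcn2 herbicide, gcn2 mock, wild-type herbicide and wild-type mock. Symbols are replicates and vertical ticks are means. The plastid genes petG and ycf3 reach -5.43 and -6.07 in gcn2 mock, and AT4G29020 has the highest gcn2 mock mean at 0.82.

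Genes of pathways near the question were counted from 8 lists, none of which holds any of the 34 genes. List genes were matched by locus identifier, and 8730 probe sets were unnamed here, so list genes without a match may lie among those. Of the GCN2 and eIF2 pathway, 10 of 19 genes matched a named probe set, and none passed for a herbicide response in either genotype or in the difference, in any fraction or in loading. The gcn2 response called 5.62%, 5.91% and 1.77% of all probe sets in non-polysomal RNA, small and large polysomes, and the difference 1.06%, 0.765% and 0.0615%. The wild-type response with all replicates called 0% in each fraction and in loading, so no list gene could pass there. The difference of loading also called 0%. The touch and early calcium list had 3 of 11 genes matched, and all 3 rose in gcn2 in each fraction. In non-polysomal RNA of gcn2, CML41, a calmodulin-like protein, rose by 2.58 ± 0.22 (SE; adjusted p = 9.9e-06) and STZ, a zinc finger repressor, by 3.44 ± 0.43 (SE; adjusted p = 0.00013), while 3.99% of all probe sets rose. In wild type CML38 and STZ rose without replicate 3, in non-polysomal RNA by 2.72 ± 0.34 (SE; adjusted p = 0.0023) and 1.55 ± 0.29 (SE; adjusted p = 0.018). There 1.62% of all probe sets rose. With all replicates, the difference of responses in non-polysomal RNA passed by limma for CML41, at 2.7 ± 0.31 (SE; adjusted p = 0.00079). It also passed for STZ, at 2.9 ± 0.61 (SE; adjusted p = 0.029), and for GH3.3 of the auxin list, at 1.68 ± 0.28 (SE; adjusted p = 0.0081). The auxin list had 3 of 14 matched, of which GH3.3, which conjugates auxin to amino acids, rose in gcn2 by 1.78 ± 0.20 (SE; adjusted p = 5.8e-05) and IAA29, a repressor of auxin response, by 1.06 ± 0.28 (SE; adjusted p = 0.039) in non-polysomal RNA. Of the salicylic acid list 1 of 22 was matched, SAG101, which rose in gcn2 non-polysomal RNA by 0.81 ± 0.18 (SE; adjusted p = 0.013). None passed of 3 matched abscisic acid and cold genes of 20, 1 clock gene of 14 and 1 dark and sugar starvation gene of 10, and no gene of 14 in the ethylene list was matched.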

How the data were processed

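RNA was hybridised to Affymetrix ATH1 arrays. The deposited log2 values were used as given. The submitters' processing notes name affy, MAS5 and RMA, with versions and joint normalization of the arrays not given in the sources used here. Of 22810 probe sets, 64 controls were left out and 22746 were tested. By GEO's platform annotation and RefSeq TAIR10.1, 13513 probe sets had a single gene, of which 13436 matched RefSeq, 503 had several genes and 8730 were unnamed here. No sequence table or genome of the arrays' build was used, so promoter motifs were not analysed here.

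Each fraction (12 arrays) and loading (12 gradients) went through limma 3.58.1 (R 4.3.3; lmFit and eBayes on 4 group means), with Benjamini-Hochberg adjustment over these probe sets and a threshold of 0.05. The fits were tested on simulated data of 22746 probe sets per fraction. In non-polysomal RNA, small and large polysomes, the wild-type response recovered 52%, 63% and 31% of changes of 1 on the log2 scale. For changes of 2 the shares were 96%, 95% and 92%. Simulated noise was independent between arrays, and no replicate ran in reverse. The shares therefore do not describe the wild-type comparisons with replicate 3. Arrays carry no counts, so their number limits the precision. The fit without wild-type replicate 3 keeps 2 wild-type arrays per group and borrows the spread of all groups.

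Genes and lists were chosen with earlier results of these data known. The level of loading, the groups without overlap and the split by replicate were added after the values were seen. Wild-type replicate 3 was singled out by values of the fraction arrays themselves. Genes named are the 12 largest and 3 smallest wild-type changes and the 8 most negative gcn2 changes in total RNA, up to 8 past the threshold per direction in each fraction comparison, the 5 largest and 3 smallest wild-type changes per fraction without replicate 3, families with several members, 3 genes on each side of each bound, and up to 2 list genes per direction. Genes of small counts, of the level of loading and of low single values were named outside that rule, after their values were seen.

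Replicate numbers were taken to pair 2 groups where the residual correlation of all 3 same-numbered pairs exceeded 0.1, a hint from the data and not the labels. This held for the gcn2 response in each fraction, between 0.227 and 0.548, for gcn2 against wild type after herbicide in small polysomes (0.138 to 0.381) and large polysomes (0.117 to 0.276), and in mock in small polysomes (0.216 to 0.507). It did not hold for the wild-type response in any fraction or for loading. Blocked values stand beside the comparisons that paired and, without wild-type replicate 3, beside those in small polysomes. Alternatives were a replicate block, median centring, quantile normalization, a filter on dim probe sets (6 in at least 3 arrays) and leaving out each replicate.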

Additional observations from a re-analysis of the deposited data

Results flagged for a closer look

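These results were flagged by a rule: the difference of responses passed the threshold, or all replicates of the genotypes moved opposite ways. Without wild-type replicate 3, the response of TRY in non-polysomal RNA was lower in gcn2 than in wild type by -1.35 in a test of that difference. In large polysomes, 3 genes were below 0 in each gcn2 replicate and above 0 in each wild-type replicate. None of these differences passed the test (limma, adjusted p = 0.87 for each). The share of all probe sets with such signs was not counted, so the 3 genes are not set apart by them. AT4G29020 changed by -0.86, -1.06 and -0.29 in gcn2 and by 0.19, 0.18 and 1.86 in wild type, a mean difference of -1.48. AT3G07950 changed by -0.26, -1.08 and -0.59 in gcn2 and by 0.12, 0.02 and 2.28 in wild type, a mean difference of -1.45, with a wild-type mock value of 2.86 in replicate 3. AT5G09850 had a mean difference of -0.64, with -0.18, -0.02 and -0.16 in gcn2 and 1.09, 0.24 and 0.24 in wild type. Without wild-type replicate 3 the differences of AT4G29020, AT3G07950 and AT5G09850 were -0.92, -0.71 and -0.79, and none passed. Groups of 3 were not tested for single outlying arrays.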

How the results depend on the processing

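The number of genes that met the rule depended most on the settings. It was 1 with bounds of 1 in wild type and 0 in gcn2, 160 with bounds of 0.5 and 0.3, and between 22 and 65 with an array or replicate left out. Leaving out wild-type replicate 3 gave 4 called genes for the wild-type response and 1 for the difference of responses in non-polysomal RNA, 9 after herbicide between gcn2 and wild type there, 1 for the wild-type response in small polysomes, and 1 after herbicide in large polysomes. With arrays also centred on their medians these 5 counts were, in the same order, 9, 1, 10, 1 and 0, with 1 gene called for the wild-type change of loading, whose median was -0.52, and a mock median in small polysomes of 0.07. The median difference of responses in large polysomes was -0.32 with centred arrays, -0.35 with quantile normalization, -0.41 with the filter on dim probe sets, -0.26 with centring and without wild-type replicate 3, and between -0.68 and -0.28 with single arrays left out. The gcn2 response in small polysomes had a median between -0.03 and 0.2 with single arrays left out. Called genes after herbicide in non-polysomal RNA numbered between 0 and 9, and in mock between 0 and 1. Genes below the median loading numbered between 8 and 15 in gcn2 mock with a gradient left out, and 9 in gcn2 mock and 8 in wild-type mock from small polysomes alone. The cause of these shifts was not tested.

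With the replicate block and all replicates, 4 genes were called after herbicide in non-polysomal RNA, where the numbers did not pair the samples, 1 higher and 3 lower in gcn2, against 4.11% and 5.02% of all probe sets, and 1 in small polysomes, where they did (2.54% lower). With the replicate block and without wild-type replicate 3, called genes in non-polysomal RNA were 13 for the wild-type response (4.3% of all probe sets higher), 2 for the difference (2.39% lower), 17 after herbicide, 2 higher and 15 lower (6.91% and 8.4%), and 2 in mock (0.317% higher). In small polysomes they were 10, 3 and 13 for the first 3 of these (3.74% higher, 0.822% and 4.75% lower), and in large polysomes 4 for the wild-type response (1.94% higher) and 1 after herbicide (0.167% lower). With the block, no other count of called genes in the comparisons that paired differed from that without it. No value past the threshold changed sign under the alternatives run. Median changes that passed no test did, such as the wild-type response in small polysomes, between -0.08 and 0.43 with single arrays left out.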
